A study of Mus musculus with 16 samples.

Results

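The mRNA of 10 genes of lipid uptake and fatty acid binding, chosen by name, was followed in liver cells: Cd36, Gpihbp1, Lpl, Lipc, Lipg, Fabp1, Fabp4, Fabp5, Slc27a2 and Slc27a5. All 10 were among the 47729 genes of the count tables, and all 10 passed the filter on low counts in every comparison. RNA was sequenced from 4 sorted cell types of unchallenged adult mouse liver, namely endothelial cells (ECs), hepatocytes (HEPs), Kupffer cells (KCs, the resident macrophages) and hepatic stellate cells (HSCs, the vitamin A-storing pericytes), in 16 libraries with 2 for each cell type and genotype. Mice of the EC KO label carried Zeb2 alleles with a loxP-flanked exon and a tamoxifen-inducible Cre driven by Cdh5, a gene of all endothelium, on a background with an eGFP reporter of recombination. Controls, labelled WT, were littermates without Cre, and both genotypes received 2 mg tamoxifen per day for 5 days. Mice were 8-week-old males, and mRNA was taken 2 weeks after tamoxifen. HEPs were separated by centrifugation, HSCs were sorted by their ultraviolet autofluorescence, KCs by F4/80 and ECs by a pan-endothelial antibody. Only ECs lose Zeb2 by design, so that KO in the name of a HEP, KC or HSC library is the genotype of the endothelium of that liver.

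Fat reaches liver cells as triglyceride in lipoproteins and as free fatty acid bound to albumin. Lipases at the vessel wall split the triglyceride: lipoprotein lipase (Lpl) is held on capillary endothelium by its anchor Gpihbp1, hepatic lipase (Lipc) is made by HEPs and acts in the sinusoids, and endothelial lipase (Lipg) prefers the phospholipid of high-density lipoprotein. Fatty acids cross the membrane with the help of the scavenger receptor Cd36 or of the fatty acid transport proteins Slc27a2 and Slc27a5, which also activate very long-chain fatty acids and bile acids to their CoA forms, and inside the cell they are carried by fatty acid binding proteins, of which Fabp1 is the liver form, Fabp4 the form of adipocytes and capillary endothelium, and Fabp5 the epidermal form.

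Gene totals ran from 12872706 to 15690506 reads a library, and levels are given as CPM, the reads of a gene scaled to that total. A level of 3 counts, the limit of detection used here, was 0.191 to 0.233 CPM, which covers counting error only. Replicates of every group differed by far more than sampling noise. Zeb2 itself was at 106 CPM in both WT EC libraries and at 199 and 130.1 in those labelled KO (log2 fold change 0.62, SE 0.24, adjusted p = 0.303), and groups are called by their labels. The deletion takes out 1 exon, whose loss counts over the whole gene may not show, so that these values do not check the labels. Adjusted p-values are from edgeR's quasi-likelihood test with Benjamini-Hochberg adjustment over all genes tested, and since the labels do not state which libraries share a mouse, they measure only the spread between these libraries. All libraries held the markers of their own cell type, but ECs, KCs and HSCs also held hepatocyte RNA. The 12 HEP markers (Alb, Apoa1 and Cyp2e1 among them) summed to 12649 and 25773 CPM in WT ECs and to 2076 and 2958 in KO ECs, against 102641 to 118568 in HEPs, and all 12 were above the 3-count limit in all 4 EC libraries. In a sorted bulk sample, fewer cells of a type and less RNA per cell cannot be told apart.

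Promoters are shown for 3 genes that stand for the 2 patterns described here, Fabp1 and Lipc for the HEP pattern and Cd36 for the EC pattern. RefSeq promoters on GRCm38.p6 were at hand for 4 of the 10 genes, and for these 3 at least 100 bases lay before the first exon of GENCODE mouse release 21. The Fabp1 stretch is chr6:71199629-71199826 (forward strand), that shown for Lipc is chr9:70952227-70952471 (reverse strand), and that of Cd36 is chr5:17835897-17836146 (reverse strand), which lies in an intron of longer Cd36 transcripts. Each is written from its own 5′ end on the strand of the gene, with capitals for matches to 5 short motifs searched on both strands: the core promoter element TATAAA, the nuclear receptor half-site AGGTCA, the half-site GTTAAT of the hepatocyte factor HNF1, the ETS core AGGAAG and the KLF core CCACCC.
Fabp1: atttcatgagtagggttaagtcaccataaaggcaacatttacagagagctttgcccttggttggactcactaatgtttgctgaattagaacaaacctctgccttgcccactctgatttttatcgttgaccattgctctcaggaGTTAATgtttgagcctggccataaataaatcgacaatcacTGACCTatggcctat
Lipc: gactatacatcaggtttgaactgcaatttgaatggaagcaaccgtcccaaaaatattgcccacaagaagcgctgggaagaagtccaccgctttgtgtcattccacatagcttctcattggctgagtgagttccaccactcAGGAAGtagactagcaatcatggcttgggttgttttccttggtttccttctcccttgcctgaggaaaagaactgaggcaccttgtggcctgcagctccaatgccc
Cd36: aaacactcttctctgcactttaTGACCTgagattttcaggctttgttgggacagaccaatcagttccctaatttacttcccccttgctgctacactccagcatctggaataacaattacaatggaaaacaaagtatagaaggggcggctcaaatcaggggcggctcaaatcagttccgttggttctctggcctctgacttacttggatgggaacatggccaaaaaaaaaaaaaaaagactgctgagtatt
Fabp1 held the HNF1 half-site at bases 144 to 149 and the nuclear receptor half-site, on the other strand, at bases 184 to 189. Of 32851 mouse promoters, 5.26% held the HNF1 half-site and 11.3% the nuclear receptor half-site in a stretch of this length. Lipc held 1 ETS match at bases 141 to 146, which 29.0% of promoters had over 245 bases. A second RefSeq promoter of Lipc, inside the gene at chr9:70934809-70935058 and not printed, held 2 nuclear receptor half-sites, 1 ETS match and 1 KLF match, motifs that 14.0%, 29.5% and 28.1% of promoters had over 250 bases. Cd36 held 1 nuclear receptor half-site, on the other strand, at bases 23 to 28, which 14.0% of promoters had over 250 bases. No matched letters overlapped, and a match of 6 letters describes the sequence only.

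The first question was how the 10 genes are split between the cell types. Gpihbp1, Cd36 and Fabp4 had their highest level in ECs, Lpl in KCs, and Lipc, Fabp1, Slc27a2 and Slc27a5 in HEPs, each above every other cell type by edgeR's quasi-likelihood test over the 16 libraries (adjusted p under 0.05). Lipg passed this test in HEPs too, narrowly against HSCs (adjusted p = 0.0469), an order that rested on the scaling, as given below. Of the sum of the mean CPM in the 4 cell types, ECs held 95.5% for Gpihbp1, 90.7% for Fabp4, 71.6% for Cd36 and 70.5% for Fabp5. HEPs held 85.0% for Slc27a2, 83.2% for Slc27a5, 82.9% for Fabp1 and 82.3% for Lipc. KCs held 75.0% for Lpl, and Lipg was spread over HSCs (38.3%), HEPs (36.1%) and ECs (19.8%).

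**Figure D1:**
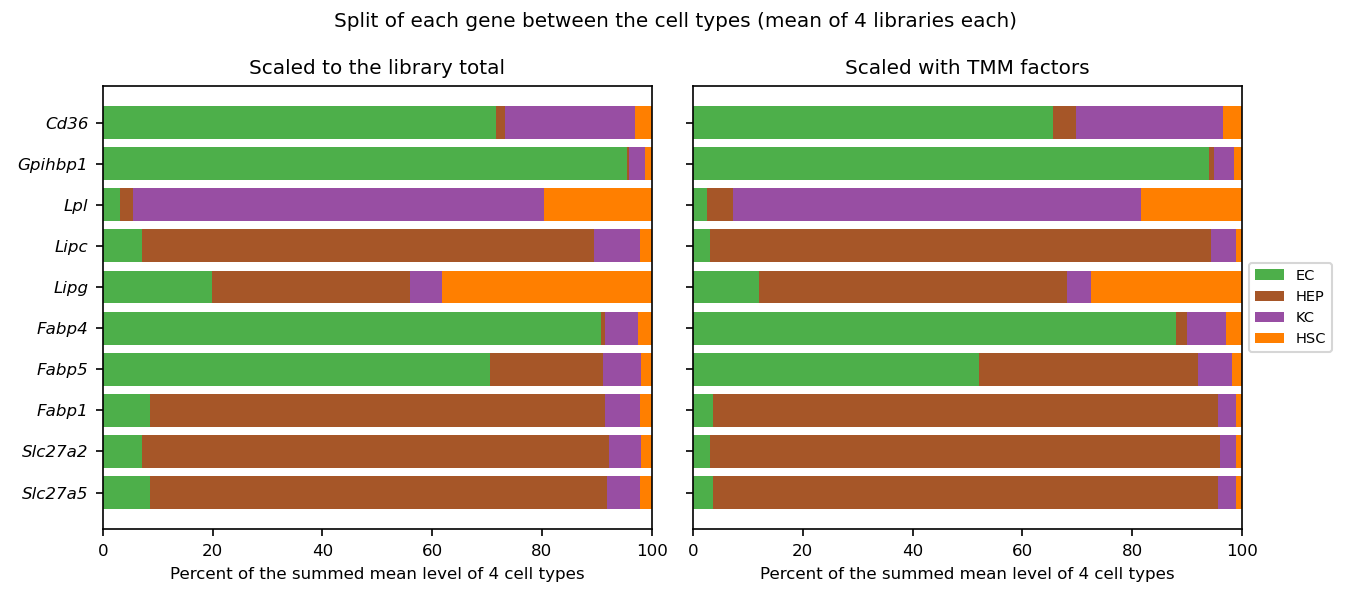
Split of each gene between the 4 cell types, as percent of the summed mean level (mean of 4 libraries per cell type), with counts scaled to the library total on the left and with TMM factors on the right. ECs take the largest part of Cd36, Gpihbp1, Fabp4 and Fabp5, KCs of Lpl, and HEPs of Lipc, Fabp1, Slc27a2 and Slc27a5 on both scales, while for Lipg the largest part moves from HSCs (38.3%) to HEPs (56.2%).

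Of the 10 members, 8 differed between ECs and HEPs (58.7% of all 17214 genes tested did), 5 between ECs and KCs (32.0% of all genes), 9 between ECs and HSCs (26.0%), 10 between HEPs and KCs (55.6%), 8 between HEPs and HSCs (58.4%) and 10 between KCs and HSCs (42.9%). The TMM factors of HEP libraries, which scale each library to the bulk of its genes, lay at 0.497 to 0.588, below those of all other libraries. The median log2 fold change of all genes between ECs and HEPs was 0.54 with TMM and 1.85 with the library total only, that between HEPs and KCs -0.24 and -1.24, and that between HEPs and HSCs -0.60 and -1.67. Contrasts with HEPs are relative to this shift, and TMM was used for all log2 fold changes below.

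**Figure D2:**
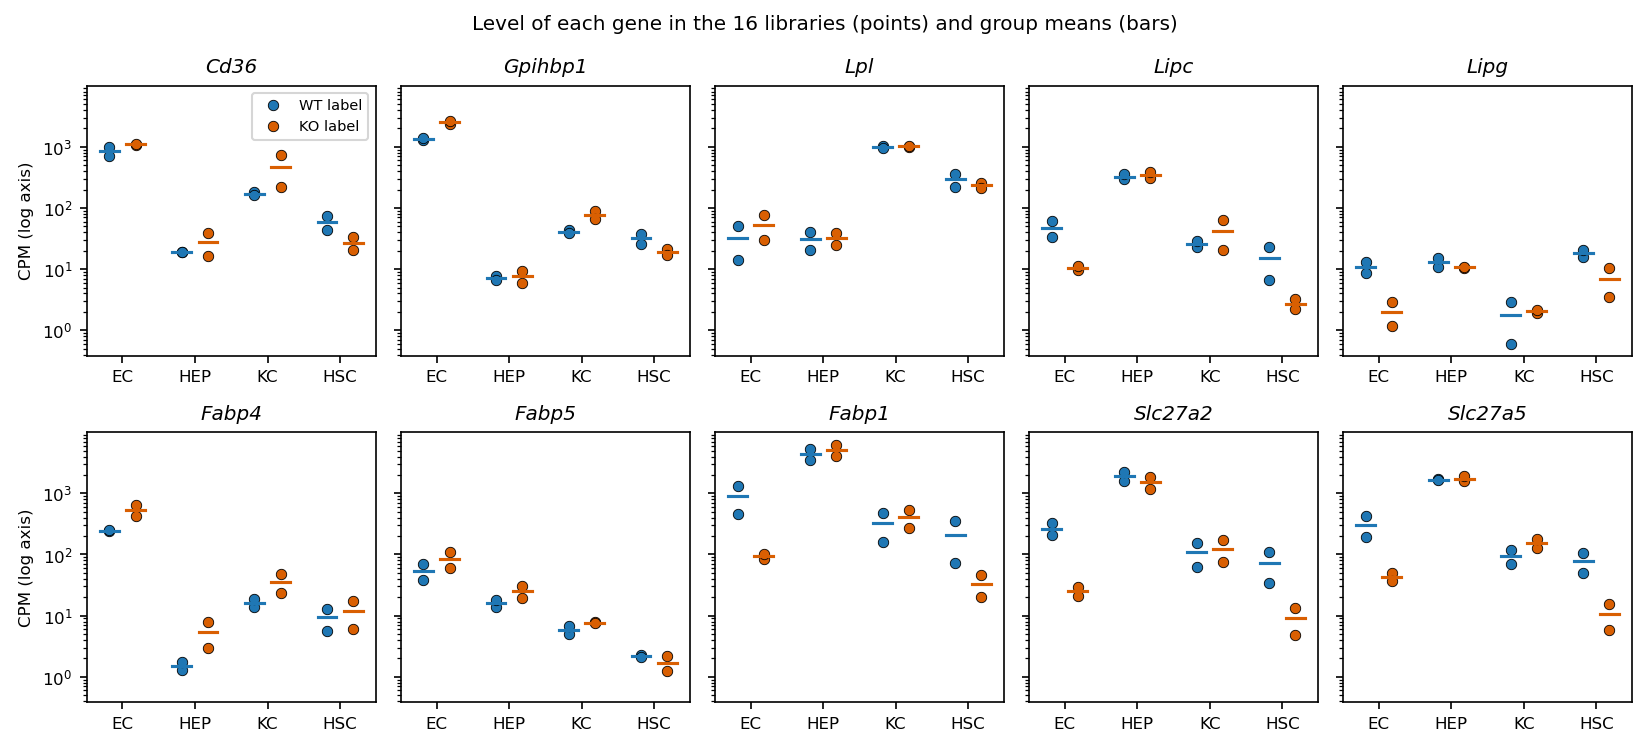
Level of the 10 genes in each of the 16 libraries in CPM on a log axis, with 1 point per library, bars at the mean of the 2 libraries of a group, WT label in blue and KO label in orange. Cd36, Gpihbp1 and Fabp4 stand highest in ECs and Lpl in KCs, while Lipc, Fabp1, Slc27a2 and Slc27a5 stand highest in HEPs and lie lower in KO than in WT libraries of ECs and HSCs.

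Cd36 (ENSMUSG00000002944, chr5:17781690-17888801 of GRCm38, reverse strand), the membrane receptor for long-chain fatty acids and oxidized lipoproteins, had 1011 and 700.2 CPM in WT ECs and 1064 and 1129 in KO ECs. KCs followed with 179 and 160.2 in WT and 221 and 728 in KO, the last value standing apart from the other 3. HSCs had 73.1 and 43.4 in WT and 33.2 and 20.9 in KO, and HEPs between 16.6 and 39.0. ECs were thus above KCs by a log2 fold change of 1.45 (SE 0.40, adjusted p = 0.0157), a call lost on leaving out WT 34 or KO 46 of the ECs or WT 39 or KO 27 of the KCs (1.09 to 1.36, adjusted p = 0.0510 to 0.0707), and KCs above HEPs by 2.56 (SE 0.42, adjusted p = 2.3e-04). HEPs and HSCs, next in order, did not differ beyond their spread (0.35, SE 0.40, adjusted p = 0.470), with a sign that turned with the library total only (-0.78).

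The genotype labels of Cd36 did not overlap in ECs, KCs or HSCs, and none of these differences passed the test. In ECs, KO libraries averaged 1097 ± 46.2 CPM (SD, n = 2) against 856 ± 220.0 (log2 fold change 0.36, SE 0.29, adjusted p = 0.632). In KCs they averaged 474 ± 359 against 169.6 ± 13.4 (1.44, SE 0.58, adjusted p = 0.933), and without KO library 43 the log2 fold change was 0.26. The 5 monocyte and dendritic cell markers summed to 13.1 and 16.6 CPM in WT KCs and to 60.5 in KO library 27 and 22.5 in KO library 43, and their part was not tested. EC markers were also higher in both KO KC libraries, as given with Gpihbp1. Cd36 had 25.8% and 85.1% of its WT EC level in KO libraries 27 and 43, where the EC markers had 5.63% and 5.24% at the median. In HSCs, KO libraries averaged 27.0 ± 8.71 CPM of Cd36 against 58.3 ± 20.9 (-1.12, SE 0.40, adjusted p = 0.512).

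Gpihbp1 (ENSMUSG00000022579, chr15:75596628-75599481, forward strand), the anchor that carries lipoprotein lipase across capillary endothelium, had 1301 and 1402 CPM in WT ECs and 2393 and 2675 in KO ECs. Both KO libraries lay above both WT libraries, with a mean of 2534 ± 199 against 1351 ± 71.1 CPM. The difference, a log2 fold change of 0.91 (SE 0.26), did not pass the test by edgeR (adjusted p = 0.183) and passed it by DESeq2 (adjusted p = 0.0025). Outside ECs the gene had 38.2 to 89.6 CPM in KCs, 16.9 to 37.4 in HSCs and 6.00 to 9.28 in HEPs. Each step of this order passed the test, with log2 fold changes of 4.72 (SE 0.23), 1.27 (SE 0.21) and 0.61 (SE 0.21), the last of which was not past the test with limma (adjusted p = 0.0988).

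In KCs, Gpihbp1 was also higher in both KO libraries (89.6 and 65.3 CPM) than in both WT libraries (42.9 and 38.2), and in HSCs lower in both (21.2 and 16.9 against 37.4 and 26.0). Neither difference passed the test (adjusted p = 0.933 and 0.569). The 10 EC markers, all above the 3-count limit, were higher in the same KO KC libraries: at the median they had 5.24% and 5.63% of their WT EC level in KO KCs against 2.42% and 4.13% in WT KCs. In HSCs they overlapped between labels, with 1.16% and 1.96% in KO and 1.91% and 4.67% in WT. Gpihbp1 had 4.83% and 6.63% of its own WT EC level in KO KCs and 2.83% and 3.18% in WT KCs. The part of EC RNA in the Gpihbp1 values of KCs was not tested.

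Lpl (ENSMUSG00000015568, chr8:68880491-68907448, forward strand), the lipase that releases fatty acids from chylomicrons and very low-density lipoprotein, was a KC gene here, with 1051 and 972 CPM in WT and 1000.2 and 1042 in KO. HSCs had 363 and 224 in WT and 259 and 214 in KO. HEPs had 20.4 and 40.9 in WT and 24.9 and 39.2 in KO, and ECs 14.1 and 50.3 in WT and 29.8 and 75.8 in KO. The lipase and its endothelial anchor therefore peaked in different cell types. KCs were above HSCs by 2.03 (SE 0.43, adjusted p = 0.0027) and HSCs above HEPs by 1.92 (SE 0.43, adjusted p = 0.0024), while HEPs and ECs did not differ beyond their spread (adjusted p = 0.0615), with a sign that turned with the library total only. WT and KO values overlapped in all 4 cell types, and the log2 fold changes lay between -0.34 in HSCs and 0.75 in ECs.

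Lipc (ENSMUSG00000032207, chr9:70798128-70952226, reverse strand), the hepatic lipase, had 297 and 356 CPM in WT HEPs and 306 and 384 in KO HEPs. KCs had 20.9 to 64.4 CPM, below HEPs by 4.40 on the log2 scale (SE 0.47, adjusted p = 6.8e-06). In ECs the gene was at 33.2 and 62.0 in WT and at 9.82 and 11.4 in KO, and in HSCs at 6.60 and 23.4 in WT and 2.21 and 3.25 in KO. KO libraries were lower than WT libraries in both cell types without overlap. In ECs, Lipc fell by 2.15 on the log2 scale (SE 0.37, adjusted p = 0.0469), 4.49-fold in mean CPM. The HSC difference was of similar size (-2.45, SE 0.72) and did not pass the test (adjusted p = 0.432).

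Lipg (ENSMUSG00000053846, chr18:74939322-74961263, reverse strand), the endothelial lipase, was low in all libraries and did not stand highest in ECs. HSCs had 15.8 and 20.3 CPM in WT and 3.46 and 10.5 in KO, and HEPs between 10.5 and 14.9. ECs had 13.2 and 8.70 in WT and 2.86 and 1.18 in KO, and KCs 0.604 to 2.94. HEPs were above HSCs by 1.18 with TMM (SE 0.47, adjusted p = 0.0469) and by 0.06 with the library total only, and the call was lost on leaving out any HEP library or HSC library KO 8, WT 32 or WT 40 (adjusted p = 0.127 to 0.319), so that the order of these cell types rests on the scaling and on single libraries. The lower values of KO ECs gave a log2 fold change of -2.46 (SE 0.61), which did not pass the test by edgeR (adjusted p = 0.127) and passed it by DESeq2 (adjusted p = 0.0074). In WT ECs, Lipg was at 67.4% and 102% of its WT HEP level, whereas the 12 HEP markers were at 11.4% and 22.5% at the median.

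Fabp4 (ENSMUSG00000062515, chr3:10204088-10208576, reverse strand) had 238 and 249 CPM in WT ECs and 423 and 649 in KO ECs. KCs had 14.0 to 48.3, HSCs 5.69 to 17.6 and HEPs 1.27 to 7.87 CPM. ECs were above KCs by 3.60 on the log2 scale (SE 0.45, adjusted p = 7.5e-05). KO libraries were above WT libraries without overlap in ECs (log2 fold change 1.15, SE 0.30), KCs (1.08, SE 0.43) and HEPs (1.85, SE 0.64). By edgeR none of the 3 passed the test (adjusted p = 0.142 in ECs and 0.933 in KCs), and DESeq2 called the one in ECs (adjusted p = 0.0036).

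Fabp4 is also known as the adipocyte binding protein and as a gene of continuous capillaries, so that both marker lists were read beside it. The 5 adipocyte markers summed to at most 0.626 CPM in any library. The 8 markers of continuous endothelium (Cd34, Vwf and Emcn among them) summed to 462 and 607 CPM in WT ECs, with 7 above the 3-count limit, and to 876 and 929.7 in KO ECs, with 7 to 8 above it. Their part in the higher Fabp4 of KO ECs was not tested.

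Fabp5 (ENSMUSG00000027533, chr3:10012548-10016607, forward strand), close to Fabp4 on the same chromosome, had 68.9 and 38.6 CPM in WT ECs, 61.2 and 110.3 in KO ECs and 13.7 to 30.8 in HEPs. With TMM, ECs and HEPs did not differ beyond their spread (0.40, SE 0.31, adjusted p = 0.280), and with the library total only ECs were above HEPs (1.77, adjusted p = 1.8e-04). KCs (4.96 to 7.98 CPM) lay below both, and HSCs (1.24 to 2.24) below KCs. The labels overlapped in ECs, and no difference between them passed the test in any cell type. HEPs averaged 20.5 ± 7.29 and ECs 69.8 ± 29.9 CPM of Fabp5 (SD, n = 4).

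Fabp1 (ENSMUSG00000054422, chr6:71199827-71205023, forward strand), the carrier of fatty acids in hepatocyte cytosol, had 3516 and 5299.9 CPM in WT HEPs and 4053 and 6228 in KO HEPs. In ECs it was at 468 and 1335 in WT and at 84.6 and 103 in KO, and in HSCs at 73.1 and 349.9 in WT and at 19.8 and 45.9 in KO. KCs had 158 and 485 in WT and 274 and 536 in KO. KO libraries were thus the lower ones in ECs and HSCs, whereas the labels overlapped in KCs and HEPs. The fall in ECs was 3.25 on the log2 scale (SE 0.51, adjusted p = 0.0384), or 9.62-fold in mean CPM.

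Slc27a2 (ENSMUSG00000027359, chr2:126552407-126588243, forward strand), a very long-chain acyl-CoA synthetase that also acts in fatty acid uptake, had 1619 and 2208 CPM in WT HEPs and 1166 and 1870.3 in KO HEPs. It was at 209 and 322 CPM in WT ECs and at 29.3 and 21.0 in KO ECs, the lowest adjusted p of the 10 genes (log2 fold change -3.40, SE 0.30, adjusted p = 0.0190). HSCs had 34.6 and 111 in WT and 4.77 and 13.3 in KO (-2.99, SE 0.75, adjusted p = 0.381), and KCs 63.4 to 173. An exon of the gene overlaps the long noncoding gene Gm26697 on the opposite strand, and without a known strand setting their reads cannot be told apart.

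Slc27a5 (ENSMUSG00000030382, chr7:12988346-12998192, reverse strand), which activates bile acids for conjugation and takes up long-chain fatty acids, had 1690.5 and 1638 CPM in WT HEPs and 1581 and 1908 in KO HEPs. It was at 192 and 423 CPM in WT ECs and 50.6 and 36.4 in KO ECs (log2 fold change -2.82, SE 0.40, adjusted p = 0.0312). HSCs had 49.8 and 107 in WT and 5.81 and 15.7 in KO (-2.85, SE 0.62, adjusted p = 0.343). KCs went the other way, with 69.9 and 117 in WT and 128 and 179.8 in KO (0.70, SE 0.34, adjusted p = 0.933).

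Below HEPs, the order of ECs and KCs for Fabp1, Slc27a2 and Slc27a5 was read over both labels and within each. Over both labels, ECs and KCs did not differ beyond their spread (adjusted p = 0.422, 0.199 and 0.476), and KCs were above HSCs by 2.09 to 2.22 on the log2 scale. Among WT libraries alone, ECs were above KCs by 1.15, 0.95 and 1.35, not past the test. Among KO libraries alone, they were below KCs by log2 fold changes of -2.42, -2.63 and -2.14, all past the test (adjusted p = 0.0243, 0.0285 and 0.0258), where 24.1% of all genes were called. Of the tests of the difference between labels itself, given with the interactions, the one for Slc27a5 alone passed. The HEP markers had the same order, with 11.4% and 22.5% in WT ECs against 5.17% and 8.21% in WT KCs, and 2.65% and 1.87% in KO ECs against 9.44% and 10.9% in KO KCs, and their part was not tested. For Lipc the sign differed too (0.49 in WT and -2.32 in KO, adjusted p = 0.0249).

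Levels of different genes are comparable only per length, here as CPM per kilobase of summed exons. Exons were joined over all annotated transcripts, and for Fabp4 they filled the whole gene, 4489 bases. Where a joined length exceeds that of the mRNA, the level per kilobase comes out too low. The orders below therefore depend on these lengths. In CPM per kilobase, ECs ranked Gpihbp1 (761 ± 272, SD, n = 4) above Cd36 (272 ± 53.0), Fabp4 (86.9 ± 42.9) and Fabp5 (19.6 ± 8.39). HEPs ranked Fabp1 (8633 ± 2213) above Slc27a5 (699 ± 58.6), Slc27a2 (457 ± 117) and Lipc (156 ± 19.1). KCs had Lpl at 97.0 ± 3.51 and Cd36 at 89.7 ± 75.7 CPM per kilobase, a Cd36 spread set by KO library 43. Fabp1 in ECs, at 899.8 ± 1059, had an SD above its mean.

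The second question was what differed between the labels within each cell type. In ECs, 4 of the 10 genes passed the test, all lower in the libraries labelled KO: Slc27a2, Fabp1, Slc27a5 and Lipc. Of all 14631 genes tested in ECs, 2.08% passed, and 1.97% were called lower. All 4 stood above every other cell type in HEPs. Lipg, which did so too with TMM, was not called between labels in ECs by edgeR (adjusted p = 0.127). None of the members that stood above every other cell type in ECs or KCs passed. The log2 fold changes of the 10 members fell into 5 of -2.15 or lower and 5 of 0.36 or higher, so that their median of -0.90 (-0.01 over all genes) lay between these groups, and 7 of them had an unadjusted p under 0.05 (15.0% of all genes). DESeq2 called 7 (6.72% of all genes), adding Lipg as lower and Gpihbp1 and Fabp4 as higher in KO.

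**Figure D3:**
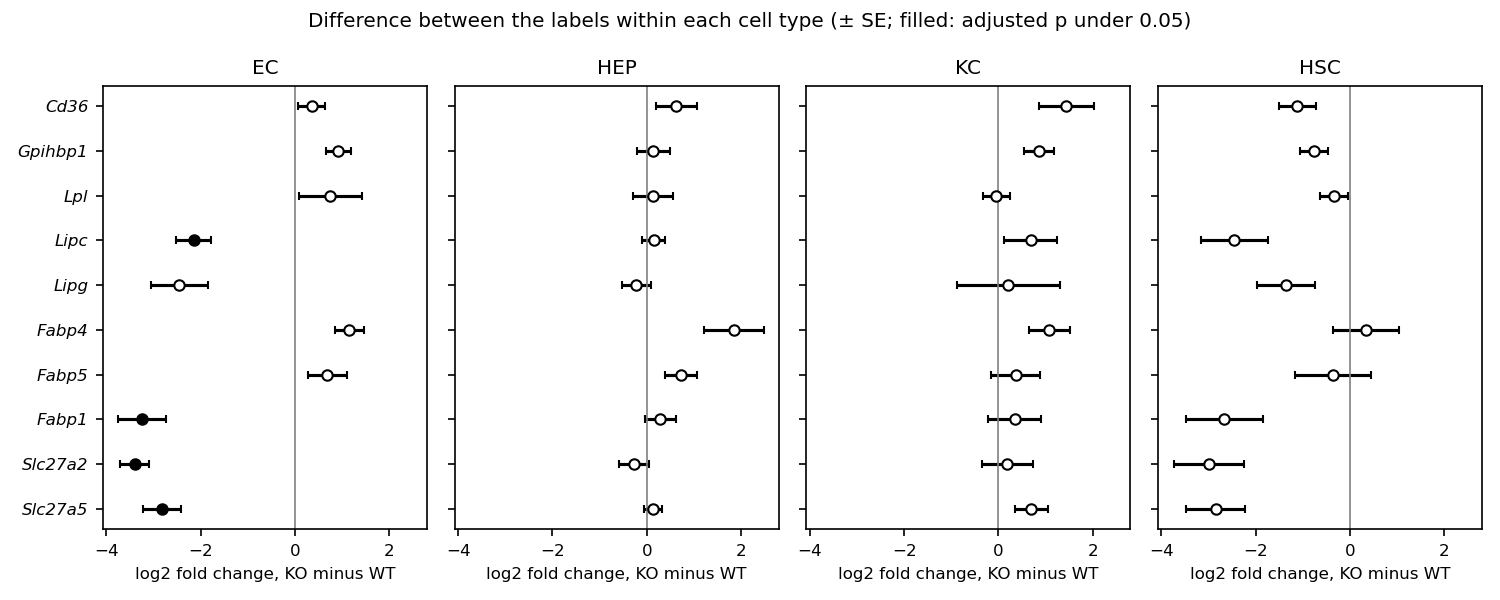
Log2 fold change between libraries labelled KO and WT (KO minus WT) for the 10 genes in each cell type, with bars of 1 SE; filled points have an adjusted p under 0.05 by edgeR. The 4 filled points are Lipc, Fabp1, Slc27a2 and Slc27a5 in ECs, between -2.15 and -3.40, and the same genes lie between -2.45 and -2.99 in HSCs with open points.

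The 4 calls, like those of all genes, depended on both EC libraries labelled KO. Without KO library 46 none of the 10 genes was called (0.0189% of all genes were), and without KO library 6 only Slc27a2 was (adjusted p = 0.0467, with 0.369% of all genes called), with log2 fold changes that stayed between -1.66 and -3.79 for all 4 genes with any EC library left out. Lipc was also lost without WT library 38 (adjusted p = 0.0594). In one fit of all 16 libraries, Slc27a2 and Slc27a5 were called (2.46% of all genes were).

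HEP markers moved with these 4 genes. The 12 HEP markers stood, at the median, at 11.4% and 22.5% of their WT HEP level in WT ECs and at 2.65% and 1.87% in KO ECs. Fabp1 had 10.6% and 30.3% of its own WT HEP level in WT ECs and 1.92% and 2.33% in KO ECs. Slc27a2 had 10.9% and 16.8% against 1.53% and 1.10%, Slc27a5 11.5% and 25.4% against 3.04% and 2.18%, and Lipc 10.2% and 19.0% against 3.01% and 3.49%. Each of these values lay inside the range of the 12 markers in its library, except Fabp1 in WT library 38 (30.3%, markers up to 29.4%) and Lipc in KO library 46 (3.49%, markers up to 2.39%). All 4 are among the 857 genes with at least 8 times the CPM in WT HEPs that they had in WT KCs. How much of the EC differences came with hepatocyte RNA was not tested.

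**Figure D4:**
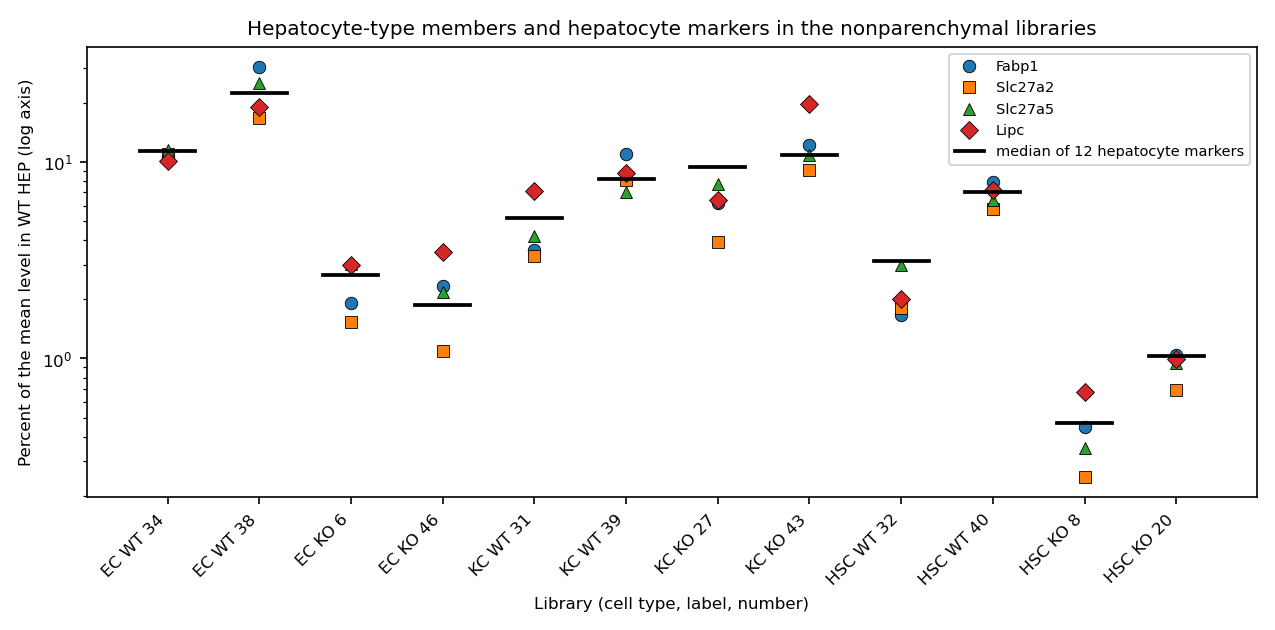
Level of Fabp1, Slc27a2, Slc27a5 and Lipc in each library of ECs, KCs and HSCs as percent of the mean level in WT HEPs (log axis), with a bar at the median of the 12 HEP markers. The genes follow the bar from 11.4% and 22.5% in WT ECs to 2.65% and 1.87% in KO ECs, and from 3.15% and 7.05% in WT HSCs to 0.467% and 1.02% in KO HSCs.

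In HSCs, none of the 10 genes passed the test by edgeR (0% of 14390 genes did), while 6 had an unadjusted p under 0.05 (8.75% of all genes), all lower in KO. DESeq2 called 4 (2.84% of all genes), namely Slc27a5, Slc27a2, Fabp1 and Lipc (adjusted p = 1.6e-04, 6.8e-04, 0.0045 and 0.0431), the same 4 genes that edgeR called in ECs. In HEPs the labels of all 4 overlapped. HEP markers moved with the HSC values too, from 3.15% and 7.05% of the WT HEP level in WT HSCs to 0.467% and 1.02% in KO HSCs, with Hnf4a at 0 in KO library 8 and the other 11 detected. Slc27a2 had 1.81% and 5.80% of its WT HEP level in WT HSCs and 0.249% and 0.694% in KO HSCs. Their part was not tested.

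In KCs, none of the 10 genes passed the test by edgeR or DESeq2 (0% of 13867 genes by edgeR and 0.519% by DESeq2), and 3 had an unadjusted p under 0.05 (5.09% of all genes), Cd36, Gpihbp1 and Fabp4, all higher in KO. All 3 stood highest in ECs, and the EC markers were higher in the same KO libraries (5.24% and 5.63% of their WT EC level against 2.42% and 4.13%), whose part was not tested. Of its own WT EC level, Cd36 had 25.8% and 85.1% in KO KC libraries 27 and 43 and 20.9% and 18.7% in WT KCs. Fabp4 had 19.8% and 9.62% in these KO libraries and 5.73% and 7.64% in WT KCs. In HEPs, none passed by either tool (0% of 11548 genes by edgeR and 0.277% by DESeq2), and Fabp4 alone had an unadjusted p under 0.05 (7.11% of all genes). HEP values of Lipc, Fabp1, Slc27a2 and Slc27a5 overlapped between labels, with log2 fold changes from -0.26 for Slc27a2 (SE 0.32) to 0.29 for Fabp1 (SE 0.32).

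Non-overlap of the labels was frequent among all genes as well. Labels did not overlap for 8 of the 10 members in ECs (48.2% of all genes), 7 in HSCs (39.8%), 5 in KCs (36.6%) and 3 in HEPs (39.5%). In ECs 3 were higher in KO (24.2% of all genes) and 5 lower (24.1%), and in HEPs 2 were higher (16.4%) and 1 lower (23.2%). In HSCs all 7 were lower in KO (19.3% of all genes were), and in KCs all 5 were higher (20.5% of all genes were).

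Whether the label differences differ between cell types was tested directly, as interaction terms over all 16 libraries. Of 60 such tests, 10 for each of 6 pairs of cell types, 1 passed: the Slc27a5 difference in ECs against that in KCs, -3.53 on the log2 scale (SE 0.74, adjusted p = 0.0355), where 2.07% of all genes passed. Slc27a2 and Fabp1 had values of similar size for this pair (-3.61, SE 0.93, adjusted p = 0.0786, and -3.60, SE 1.09, adjusted p = 0.137). The Slc27a5 call was lost on leaving out WT 38, KO 6 or KO 46 of the ECs or WT 31, WT 39 or KO 43 of the KCs, with adjusted p from 0.0735 to 0.190. For ECs against HEPs, where 0.0697% of all genes passed, Slc27a2 had -3.18 (SE 0.93, adjusted p = 0.187) and Fabp1 -3.57 (SE 1.09, adjusted p = 0.215). Between ECs and HSCs the 4 HEP-type genes had values from -0.56 to 0.32, not past the test, and Gpihbp1 had 1.68 (SE 0.41, adjusted p = 0.374), where 0.0349% of all genes passed. No member passed for KCs against HSCs (0.593% of all genes), HEPs against KCs (0.0116%) or HEPs against HSCs (0.0755%). The nearest was Slc27a5 for KCs against HSCs (3.58, SE 0.75, adjusted p = 0.0594).

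Other genes of lipid uptake and handling, 51 in all, were read beside the 10. In ECs, 6 of 42 tested were called, all lower in KO, where 1.97% of all genes were, and none of the 41 tested in HEPs, 44 in KCs and 42 in HSCs was (0% of all genes). With 1 EC library left out, the log2 fold changes of the 6 genes called in ECs stayed between -5.02 (Angptl4) and -1.37 (Lrp1). How many genes of the list were called moved with single EC libraries, as it did for all genes. Among regulators of the lipases, Angptl4, a secreted inhibitor of lipoprotein lipase, fell from 59.5 ± 7.94 to 3.90 ± 3.06 CPM (log2 fold change -3.95, adjusted p = 0.0300, and from -5.02 to -3.34 with 1 library left out), and Apoa5 and Apoc3, apolipoproteins that raise and lower lipase action, fell by 3.35 and 2.90 on the log2 scale. Acsl1, the acyl-CoA synthetase that activates long-chain fatty acids, fell by 2.93. Of the lipoprotein receptors, Lsr fell by 2.64 and Lrp1 by 1.47. The HEP markers fell in the same libraries, from 11.4% and 22.5% to 2.65% and 1.87% of their WT HEP level, and their part was not tested. Lrp1 was higher in KCs and HSCs (664 to 913 CPM as group means) than in HEPs (95.4 and 157).

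Of the 46 of these genes tested between cell types, 4 were above every other cell type in ECs: Slc27a3, an acyl-CoA synthetase of the same family as Slc27a2, Cav1, the coat protein of caveolae, Hspg2, a heparan sulfate proteoglycan of the basement membrane, and Mgll, the monoacylglycerol lipase (the last 2 named after their values were seen). HEPs were highest for 20, led by Fabp2 and Plin5, KCs for 2, the binding protein Fabp7 and the sterol receptor Nr1h3, and HSCs for none. Each contrast with HEPs called 55.6 to 58.7% of all genes, and the other contrasts 26.0 to 42.9%. The share of all genes above every other cell type was not counted, so that these counts only describe the list. In KCs, Fabp7 was at 759 ± 45.3 CPM in WT and 605 ± 137 in KO.

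Genes with the pattern most like each member were ranked by Pearson's r of log2 CPM over the 16 libraries, which share cell types and perhaps livers. Gpihbp1 was followed by Clec4g (0.995), Ackr1 (0.995) and Oit3 (0.992), and Cd36 by Sh3bp5 (0.973), Pecam1 (0.971) and Kcnq1 (0.962). Fabp4 was nearest to 2700094K13Rik (0.975) and Flt1 (0.974), Fabp5 to Sepp1 (0.978) and Lpl to Prkcd (0.975) and Pltp (0.975). Fabp1 was nearest to Apoa2 (0.994), Slc27a2 to Acaa1b (0.997), Slc27a5 to Fgg (0.997) and Lipc to Upb1 (0.993). Each of these last 4 had between 335 and 373 genes at an r of at least 0.95, whereas Lipg had none and its nearest gene was Kctd15 (0.891).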

How the data were processed

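RNA of 16 libraries was measured by mRNA sequencing. The deposited values are raw read counts per gene, which the authors made with Trimmomatic 0.32, HISAT2 2.1.0 and HTSeq 0.9.1 on GRCm38, per the labels. The sources name both Smart-seq2 and a stranded TruSeq kit, and the strand setting of the counting is not given in the sources used here. The 5 summary lines of each count table (42.5 to 57.5% of all reads listed) were left out. Gene models are from GENCODE mouse release 21, which held 98.9% of the 47729 gene rows. The 10 genes, the gene lists and the tests were chosen with earlier results of these data known. Named genes are the 10 members, other lipid genes that passed a test, and the 3 genes with the highest correlation to each member.

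Counts were tested in edgeR 4.0.16 (R 4.3.3) with filterByExpr, TMM factors and the quasi-likelihood F-test, at an adjusted p of 0.05. Labels were compared in a separate fit of the 4 libraries of each cell type, and cell types and interactions in one fit of all 16. Alternatives were DESeq2 1.42.0, limma 3.58.1 (voom, with and without a block, added after seeing the data), other scalings, no filter, other library sets, each library left out, and the removal of 857 hepatocyte-enriched genes (at least 10 CPM in WT HEPs and 8 times the WT KC level), which was added after seeing the data. The test was checked on counts simulated with independent libraries and the same fixed spread for all genes. That setting is simpler than these libraries, so that the check covers how the test runs and not the calls made here. Apoc2 has 2 overlapping entries, of which 1 was used. That entry averaged 0.212 CPM in HEPs and 0 in ECs, near or below the 3-count limit, so that no level is given for Apoc2.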

Additional observations from a re-analysis of the deposited data

Results flagged for a closer look

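For Slc27a5, the difference between labels in ECs against that in KCs passed the interaction test, the only such test among the members to do so. The call was lost on leaving out most single libraries of ECs and KCs, as given with the interactions, with log2 values from -3.82 to -2.85. The interaction term was -3.53 on the log2 scale (SE 0.74, edgeR adjusted p = 0.0355), with both KO libraries below both WT libraries in ECs and above them in KCs. HEP markers moved in the same directions, at the median from 11.4% and 22.5% to 2.65% and 1.87% of the WT HEP level in ECs and from 5.17% and 8.21% to 9.44% and 10.9% in KCs, and their part in the difference was not tested.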

How the results depend on the processing

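Labels could not be paired, as no library number occurs in more than 1 group. The numbers do run in sets of 4 with 1 place for each cell type, which may mark mice but is not stated. With these sets as a random replicate block in limma-voom, added after seeing the data, the correlation within a set was 0.036 and no count of members called differed from limma-voom without the block. Both gave 1 for the interaction of ECs against HEPs (0.993% of all genes with the block, 0.982% without) and 2 for ECs against KCs (2.49% and 2.29%). Shares of all genes called stand in parentheses. The count of members called between labels in ECs (4) was 7 with DESeq2 (6.72%), 2 in the fit of all 16 libraries (2.46%) and 0 to 4 with 1 library left out (0.0189 to 4.39%). It was 0 without the hepatocyte-enriched genes (0% of 13798 genes), all 4 being among those removed. In KCs it was 1 without a filter on low counts (Cd36, 0.704%). In HSCs it was 4 with DESeq2 (2.84%), 5 without a filter (2.7%) and 1 in the fit of all 16 libraries (1.03%). Between ECs and KCs, 8 were called without a filter (20.2%) and 8 in KO libraries only (24.1%). Between ECs and HSCs, 5 were called in WT libraries only (10.2%) and 5 in KO libraries only (13.7%), and between KCs and HSCs 3 in WT libraries only (21.2%). For interactions, DESeq2 called 3 for ECs against HEPs (3.44%), 4 for ECs against KCs (6.31%), 1 for ECs against HSCs (0.569%), 1 for HEPs against HSCs (2.16%) and 5 for KCs against HSCs (4.51%). Without a filter, 4 (3.32%), 4 (4.42%), 5 (2.55%) and 6 (3.81%) were called for ECs against HEPs, ECs against KCs, HEPs against HSCs and KCs against HSCs. With 1 library left out, which leaves 1 library in a group, the Slc27a5 interaction for ECs against KCs ran from -3.82 to -2.85 on the log2 scale. Other causes were not tested.

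Signs turned in these log2 fold changes. With the library total only, Lpl became 0.40 for ECs against HEPs and 0.014 between labels in KCs, and Cd36 became -0.78 for HEPs against HSCs. In WT libraries only, Cd36 was -0.54 for HEPs against HSCs, and for ECs against KCs Lipc was 0.49, Fabp1 1.15, Slc27a2 0.95 and Slc27a5 1.35. In KO libraries only, Lipg was -0.34 for ECs against KCs. With 1 library left out, the difference between labels ran in ECs from -0.14 to 1.90 for Lpl. In HEPs it ran from -0.20 to 1.16 for Cd36, -0.32 to 0.79 for Lpl, -0.13 to 0.38 for Gpihbp1, -0.091 to 0.36 for Lipc, -0.47 to 0.087 for Lipg, -0.13 to 0.68 for Fabp1, -0.72 to 0.088 for Slc27a2 and -0.067 to 0.33 for Slc27a5. In KCs it ran from -0.20 to 0.13 for Lpl, -0.42 to 1.29 for Lipc, -0.47 to 1.58 for Lipg, -0.28 to 1.21 for Fabp1 and -0.60 to 0.82 for Slc27a2. In HSCs it ran from -0.67 to 0.066 for Lpl, -0.74 to 1.06 for Fabp4 and -0.89 to 0.019 for Fabp5. Cd36 ran from -0.33 to 0.36 for HEPs against HSCs.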
